A study of Mus musculus with 3 samples.

Results

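Rab GTPases are small membrane-bound switches that direct vesicle traffic, and the genes studied here are the mouse protein-coding genes named Rab followed by digits and at most 1 letter. In the mm9 build of the mouse genome, with the GENCODE vM1 annotation, 49 of the 21418 protein-coding genes on chromosomes 1 to 19 met this rule. The melanosome Rabs Rab27a, Rab32 and Rab38 were left out of the group by the rule and stayed among the 21369 other coding genes. The rule itself uses symbols and no measured value, but the group was proposed with earlier results of these data known. The question asked was where TFAP2A, a transcription factor of the AP-2 family that is expressed in melanocytes, sat on chromatin around these genes.

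The series held 3 samples of melan-a, an immortalized line of mouse melanocytes derived from normal embryonic skin. TFAP2A-bound chromatin was precipitated with the AP-2alpha antibody 3B5 in 2 independent ChIP experiments, called replicate 1 and replicate 2, and the third sample was input chromatin with no antibody. All 3 samples carried the genotype Cdkn2a tm1RDp/tm1RDp, received no treatment, and grew in medium with fetal bovine serum, 12-O-tetradecanoylphorbol 13-acetate and cholera toxin. A single cell line was studied, and no sample lacked TFAP2A. Peaks, regions where the ChIP signal exceeded background, were listed separately for replicate 1 (18528 peaks) and replicate 2 (21459 peaks), and the input library was not analysed here. The lists hold no expression values, so neither the labelled cell type nor the transcription of a Rab gene could be checked from them. Sequencing depth was unknown for both.

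A Rab protein is active when bound to GTP, when it sits on a membrane and recruits effectors such as tethers and motor adaptors. Exchange factors load GTP, GTPase-activating proteins end the active state, and prenyl groups added to the Rab protein anchor it in the membrane. Each Rab marks certain compartments: Rab1 and Rab2 the traffic between endoplasmic reticulum (ER) and Golgi, Rab5 the early endosome, Rab7 the late endosome, Rab11 the recycling endosome and Rab3 secretory vesicles. Melanocytes depend on such traffic, since melanosomes, the pigment organelles, are made from endosomal membranes and are then moved to the cell edge and passed on.

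TFAP2 proteins bind a GC-rich palindrome, searched here on both strands as GCCNNNGG, in which N is any base. Sequences are shown for the Rab genes whose strongest region near a start site held such a match within 50 bp of the summit, the point of highest signal in a peak, with 1 region for each gene. The intronic Rab2a region, the most enriched of all Rab regions, was added after its values were seen. Matches of a region found in both lists are those at its replicate 1 summit. Each run is the plus strand of mm9, read 5′ to 3′, with the matched bases in capitals. The Rab33b run was kept short because the summit lay in an untranslated exon.
Rab5a, chr17:53618267-53618367: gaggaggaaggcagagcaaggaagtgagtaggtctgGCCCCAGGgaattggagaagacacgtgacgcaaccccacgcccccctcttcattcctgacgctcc
Rab33b, chr3:51288127-51288156: cgcgccgcggtGCCCGCGGGCtgtggggag
Rab31, chr17:66125791-66125891: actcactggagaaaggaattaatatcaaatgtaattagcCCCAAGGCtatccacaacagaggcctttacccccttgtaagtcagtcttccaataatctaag
Rab24, chr13:55424047-55424147: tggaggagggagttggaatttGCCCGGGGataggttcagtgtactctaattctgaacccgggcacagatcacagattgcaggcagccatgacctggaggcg
Rab2a, chr4:8532843-8532943: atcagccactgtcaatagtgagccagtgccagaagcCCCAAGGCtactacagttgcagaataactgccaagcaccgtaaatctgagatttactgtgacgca
The Rab33b run held 2 overlapping matches, one on each strand, and the other runs held 1 each. The Rab31 and Rab2a matches, both on the minus strand, were the same 8 letters. In the Rab5a run the E-box letters CACGTG, the core of the sites bound by basic helix-loop-helix factors such as MITF, also occurred, outside the TFAP2 match. The centre of the match lay -10 bp from the summit at Rab5a and Rab2a, -7 bp at Rab31, -25 bp at Rab24 and 27 bp at Rab33b, counted along the plus strand.

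Near start sites, the share of Rab genes with a TFAP2A peak was about that of other coding genes. The TSS window reached from 5 kb before to 1 kb after each annotated transcription start site (TSS) of a gene, and a gene was counted when a summit fell in it. In replicate 1, 12 of the 49 Rab genes had a summit in this window (24.5%, 95% exact binomial interval 13.3 to 38.9), beside 19% of the other coding genes. In replicate 2 the count was again 12 of 49 (24.5%), beside 21.4% of the others. Both lists had a summit in the window of 8 Rab genes (16.3%, 7.32 to 29.7), beside 17.5% of the others. The other genes' share lay inside the Rab interval for both lists and for each replicate. These intervals cover counting error over genes only, and no test was run, since 2 replicates of 1 condition give no contrast between conditions. When only the more enriched 50% of each list was kept, the count in both lists fell to 4 Rab genes (8.16%), beside 6.55% of the others, which put the Rab share above that of the others.

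Across the whole gene and 10 kb to each side, a larger share of the Rab genes held a peak. A summit lay in this wider window of 25 of the 49 Rab genes in replicate 1 (51%, 36.3 to 65.6), beside 38.4% of the other coding genes. In replicate 2 there were 28 (57.1%, 42.2 to 71.2), beside 41.5%. In both lists there were 23 (46.9%, 32.5 to 61.7), beside 36.1%. The Rab interval excluded the others' share in replicate 2, but not in replicate 1 or for both lists. With the gene body alone, without the 10 kb to each side, the shares in both lists were nearer, at 24.5% and 21.5%. When only summits with the gene's own start site as the nearest coding one counted, they were 34.7% and 27.4%. Rab genes were longer than the other genes, with a median of 23.3 kb against 15.5 kb, so their windows were wider, and the part of length in these shares was not tested. On average 0.898 ± 1.01 other coding genes (SD, n = 49) had a start site in the window of a Rab gene, against 0.739 ± 1.10 (SD, n = 21369) for the other genes.

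**Figure D1:**
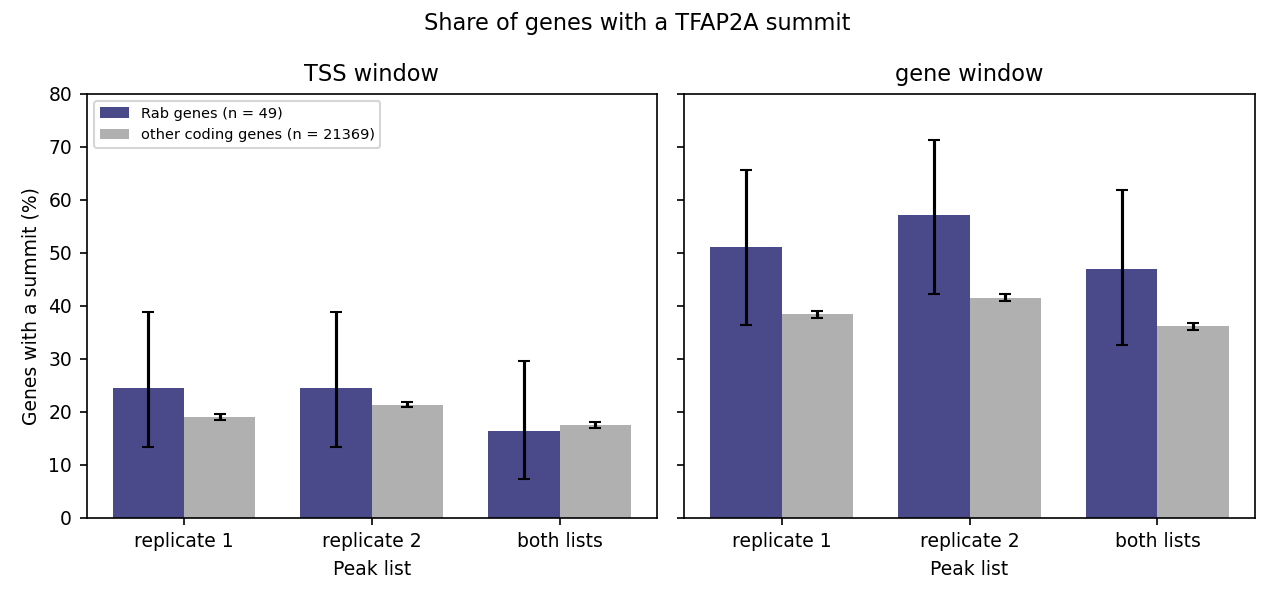
Percent of genes with a TFAP2A summit in the TSS window (left) and in the gene body with 10 kb to each side (right), for the list of replicate 1, the list of replicate 2, and both lists. Dark bars are the 49 Rab genes, grey bars the 21369 other coding genes, and error bars are exact binomial 95% intervals over genes; the others' share lies below the Rab interval only for replicate 2 in the wider window.

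Per length of sequence, Rab genes carried more summits than the other coding genes in both replicates. In the merged TSS windows, 0.456 Mb in all, 15 summits of each replicate lay at Rab genes, or 32.9 per Mb, beside 22.9 and 26.7 per Mb at the other genes. The ratio was 1.43 in replicate 1 and 1.23 in replicate 2 (1.33 ± 0.146, SD, n = 2). Rab5a, Rab5b and Rab33b each gave 2 of the 15 summits in each replicate. In the wider windows, 2.85 Mb in all, 47 summits of replicate 1 and 61 of replicate 2 gave 16.5 and 21.4 per Mb, beside 10.9 and 12.7 per Mb, a ratio of 1.60 ± 0.129 (SD, n = 2). This ratio fell to 1.13 when a summit was counted only for the coding gene with the nearest start site. The size of the excess in the wider window thus depended on whether summits nearer to a neighbouring gene were counted. The SDs of the ratios cover the 2 replicates only and not counting error over genes, and neither excess was tested.

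The peaks near Rab start sites were of ordinary strength. Fold enrichment, the ratio of ChIP signal to background given by the peak caller, was at the median 5.27 (replicate 1) and 5.58 (replicate 2) over Rab peaks in the TSS window (5.42 ± 0.221, SD, n = 2). At the other coding genes it was 4.59 and 4.86 (4.72 ± 0.191). With only the more enriched 50% of each list the order turned, with 6.94 at Rab genes and 7.60 at the others. The highest Rab value was 9.16 in replicate 1 and 8.83 in replicate 2. Ranked by mean enrichment among 15732 regions found in both lists, the best Rab region near a start site, at Rab5a, was number 4207, within the top 26.7%.

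Among the early endosome and fast recycling Rabs, 5 of 14 had a summit near a start site in both lists, beside 17.5% of the other coding genes. Rab5a, which drives the fusion of early endosomes, had the strongest, at chr17:53617918-53618569, with an enrichment of 9.15 in replicate 1 and 8.15 in replicate 2 (8.65 ± 0.711, SD, n = 2) and its summit at -242 bp from the TSS. A weaker intronic region at 552 bp reached 3.30 ± 0.0647, with 3 TFAP2 matches at its summit. The E-box shown above lay within 50 bp of the replicate 1 summit but not of the replicate 2 summit.

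Rab5b, the second of the Rab5 isoforms, had an intronic region at chr10:128132577-128133040, 484 bp past the TSS, with 5.27 in replicate 1 and 6.47 in replicate 2 (5.87 ± 0.849), and a weaker one at -3421 bp (3.30 ± 0.0204). Neither held a TFAP2 match at the replicate 1 summit, while the weaker one held 2 at the replicate 2 summit. Rab5c, the third isoform, had a start site peak in replicate 1 only, at -291 bp with an enrichment of 4.06. Near their own start sites the isoforms thus ran from the most enriched start site region of any Rab gene, in both lists, to a weak peak in 1 list. Within 10 kb of the 3′ end of Rab5c, however, a region at chr11:100574588-100575960 had 10.7 and 9.84 (10.2 ± 0.583), more than any start site region of a Rab gene, and its summit lay 1 bp from the start site of the neighbour Hspb9.

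Rab31, which acts between the trans-Golgi network and endosomes, had a region at chr17:66125636-66126084, at -3749 bp, with 7.14 and 6.75 in replicates 1 and 2 (6.94 ± 0.279, SD, n = 2). Its TFAP2 match lay within 50 bp of the replicate 1 summit, and no match lay that near to the replicate 2 summit. Rab15, a Rab of early and recycling endosomes, had an intronic region at chr12:77914059-77914486, 591 bp past the TSS, with 5.99 and 5.58 (5.79 ± 0.295) and no TFAP2 match. Rab24, which is linked to autophagy, had the weakest of these genes' best start site regions, at chr13:55423889-55424275, with 3.00 and 4.46 (3.73 ± 1.04). Its summit lay at -756 bp from the Rab24 start site and 681 bp past that of the neighbour Prelid1, so the nearest start site was not that of Rab24. Rab17, a Rab of polarized epithelial sorting, had a start site peak in replicate 1 only, at -40 bp with 3.79. A stronger Rab17 region lay just outside the window, at -5525 bp, with 8.85 and 10.4 (9.60 ± 1.06) and an AP-1 match at the summit in both replicates.

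Of the 11 ER and Golgi Rabs, 2 had a summit near a start site in both lists, beside 17.5% of the other coding genes, and the other 9 in neither. Rab33b, a Golgi Rab that binds the autophagy machinery, had a pair of such regions of like strength. The one at chr3:51287741-51288439 had its summit in an untranslated exon at 226 bp, with 9.16 in replicate 1 and 6.39 in replicate 2 (7.77 ± 1.95, SD, n = 2). The one at chr3:51285884-51286409 lay at -1854 bp, with 6.43 and 8.83 (7.63 ± 1.69). Which was the stronger differed between the replicates, and the means differed by less than the spread. Rab18, a Rab of the ER and of lipid droplets, had a region at -252 bp with 5.89 and 5.57 (5.73 ± 0.222) and no TFAP2 match.

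No start site region in both lists was found among the recycling endosome and plasma membrane Rabs (0 of 8), the regulated secretion Rabs (0 of 7) or the late endosome Rab7. At the 17.5% of the other coding genes, groups this small can hold none, so the counts of 0 do not set these roles apart. Single-list peaks were found in their place. In replicate 1 these were Rab8b, a Rab of transport to the plasma membrane, with 3.26 at -201 bp, and the vesicle exocytosis gene Rab3a with 2.58 at -2234 bp. In replicate 2 they were Rab3c with 6.25 at -107 bp, Rab3d with 4.37 at -1030 bp and Rab7 with 2.91 at 189 bp.

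The 8 Rabs of other or less settled roles gave 1 gene with a start site region in both lists, beside the same 17.5%, namely Rab40c, whose protein carries a SOCS box that links it to ubiquitin ligases. The Rab40c region at chr17:26057048-26057600, at -691 bp, had 8.67 in replicate 1 and 7.24 in replicate 2 (7.95 ± 1.01, SD, n = 2) and no TFAP2 match at its summit. Its paralog Rab40b had no summit in either list within the gene or 10 kb of it. Rab34, a Rab of the Golgi and cilium, had a peak in replicate 2 only, with 3.40 at 20 bp and an E-box at the summit.

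**Figure D2:**
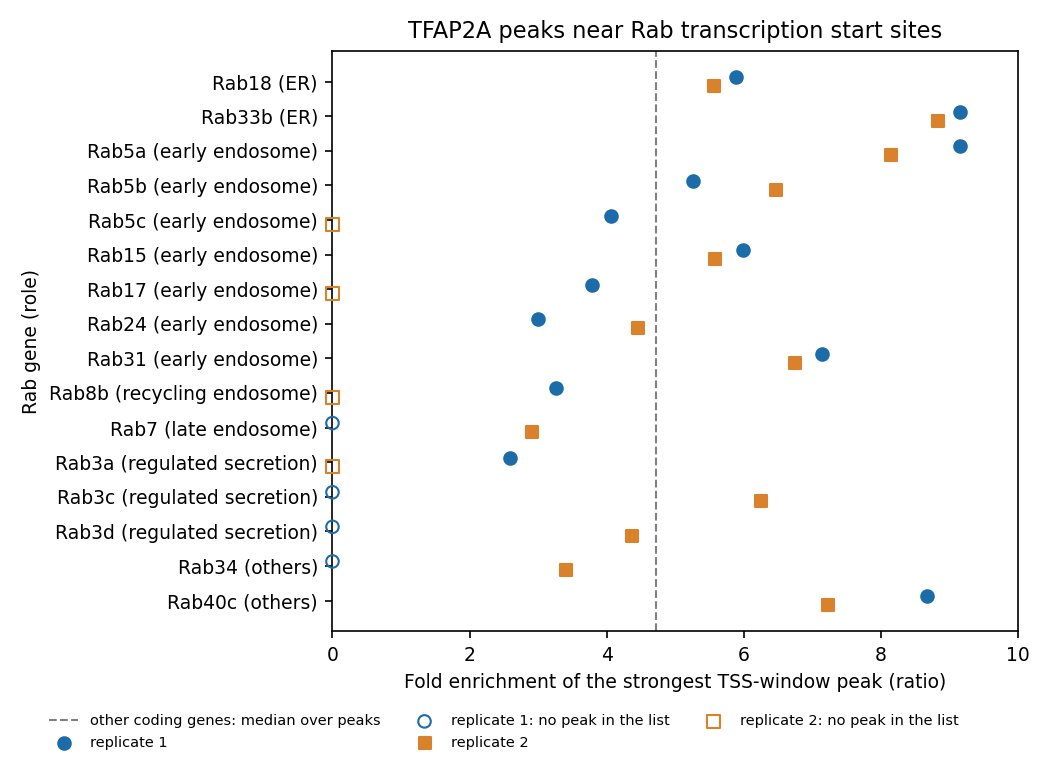
Fold enrichment (ratio, horizontal axis) of the strongest peak in the TSS window of each of the 16 Rab genes with a peak in at least 1 list, ordered by role, with circles for replicate 1, squares for replicate 2 and open symbols at 0 where a list had no peak. The dashed line is the median over TSS-window peaks of the other coding genes (4.72, mean of the replicates); at Rab33b the strongest peak was a different region in each replicate, and of the 8 genes with a peak in 1 list only, Rab3c alone lies to the right of the line.

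Near start sites the lists often named different Rab genes. Of the 16 Rab genes with a TSS-window summit in at least 1 list, 8 had one in both (50.0%, 24.7 to 75.3), beside 76.5% (75.2 to 77.6) of 4892 other coding genes. The Rab interval lay just below that share, and the difference was not tested. None of the 8 single-list peaks overlapped any peak of the other list. Their enrichment ran from 2.58 to 6.25 with a median of 3.59, against 6.19 for Rab peaks that had a partner. At the other genes the corresponding medians were 3.77 and 5.11. In the wider windows 23 of 30 Rab genes had a summit in both lists (76.7%, 57.7 to 90.1), beside 82.6% of the others.

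Where both lists had a peak, the replicates gave like values. In the 42 regions of the Rab gene windows found in both lists, the ratio of replicate 2 to replicate 1 enrichment had a median of 1.03 and ran from 0.698 to 1.72. All 42 lay within 2-fold, and 21 were higher in replicate 2. Summits lay a median of 24 bp apart, and 41 of the 42 pairs had them within 100 bp. The other 15690 pairs had a median ratio of 1.05, with 98.4% within 2-fold.

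**Figure D3:**
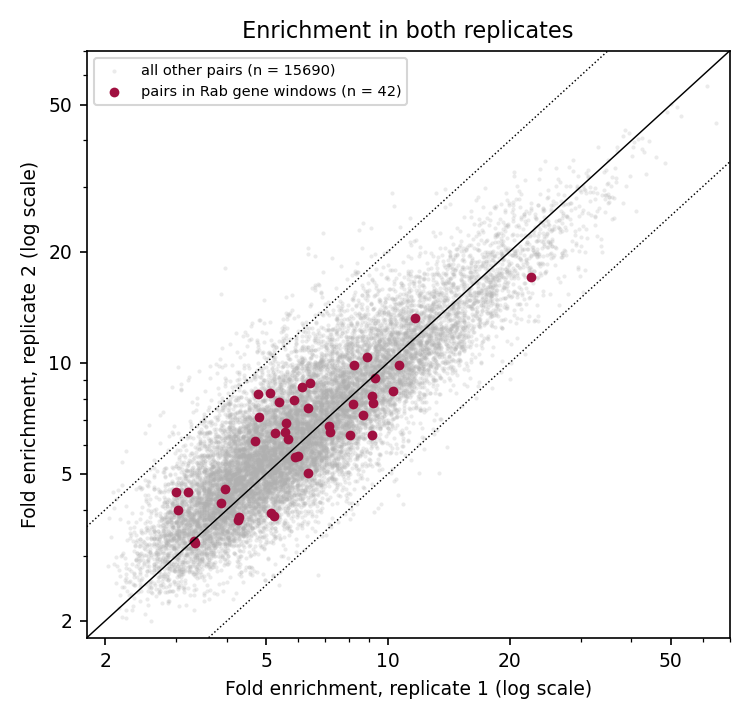
Fold enrichment in replicate 1 (horizontal, log scale) and replicate 2 (vertical, log scale) of the 42 pairs of overlapping peaks in Rab gene windows (red) and of 15690 other pairs (grey), with lines at equality (solid) and at 2-fold (dotted). All Rab pairs lie within 2-fold, and the point farthest to the right is the Rab2a intron region, at 22.6 and 17.1.

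The most enriched regions in Rab gene windows lay in introns and beyond the gene ends, not at the start sites of the Rab genes. Of the 42 regions, 10 were upstream, 19 in introns, 3 in untranslated exons and 10 downstream of the gene. Their mean enrichment ran from 3.30 to 19.9, with a median of 6.56. The nearest coding start site was that of the Rab gene in 26 of them and that of another gene in 16. Of the 11 in TSS windows, 8 lay within 1 kb of a start site and 7 were upstream of it.

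Rab2a, which acts between Golgi and ER, held the strongest region. It lay in an intron at chr4:8532311-8533381, 70102 bp past the start site, with an enrichment of 22.6 in replicate 1 and 17.1 in replicate 2 (19.9 ± 3.92, SD, n = 2), number 426 of the 15732 regions. A second Rab2a intron region at chr4:8504362-8505017 had 11.7 and 13.2 (12.5 ± 1.09), and a weaker one at chr4:8471614-8471961 had 6.33 and 5.03 (5.68 ± 0.917). All 3 held a TFAP2 match at the replicate 1 summit, and the first and last named also at that of replicate 2. All were nearest to the Rab2a start site, while neither list had a summit in the Rab2a TSS window. In both replicates the strongest of the 3 was above the other two.

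Rab31, Rab33b and Rab8b had the most regions in both lists, with 4 each. At Rab31 the strongest was an intron region 70346 bp past the start site, with 8.19 and 7.76 (7.97 ± 0.303, SD, n = 2), while the 3′ one, with 4.02 ± 0.202, had its summit at -439 bp from the Txndc2 start site. Txndc2 was also the nearest coding start site for the strongest one, at -60092 bp, and for 3 of the 4 regions in all. At Rab33b a pair of regions downstream of the gene had 7.21 ± 1.20 and 6.93 ± 0.835, the latter with 6 TFAP2 matches within 50 bp of the summit, the most of any Rab region. At Rab8b all 4 lay within the gene, from 13720 to 74597 bp past the start site, and ran from 4.06 ± 0.331 to 7.38 ± 1.74, and the strongest was nearest to the start site of Aph1c. Rab8b thus had several regions in its body while its start site had a peak in 1 list only.

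Rab3c, a Rab3 isoform of secretory vesicles, had 3 regions in both lists. An untranslated exon region had 6.83 ± 0.495 (SD, n = 2) with Pde4d as the nearest start site, and intron regions had 6.68 ± 2.23 and 5.93 ± 0.402, the latter with an AP-1 match at the summit in both replicates. Rab20, Rab25 and Rab30 followed with 2 regions each, as did Rab5a, Rab5b and Rab40c. Rab20, a Rab of phagosomes and endosomes, had 2 summits in replicate 1 but 6 in replicate 2, with 9.05 ± 1.15 at the stronger region, an intron nearest to Col4a2. Rab25, an epithelial recycling Rab, had 9.19 ± 0.168 in a region nearest to Mex3a and 3.83 ± 0.889 in one at -286 bp from the Ubqln4 start site. Rab30, a Golgi Rab, had intron regions of 6.60 ± 1.72 and 6.89 ± 1.48.

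**Figure D4:**
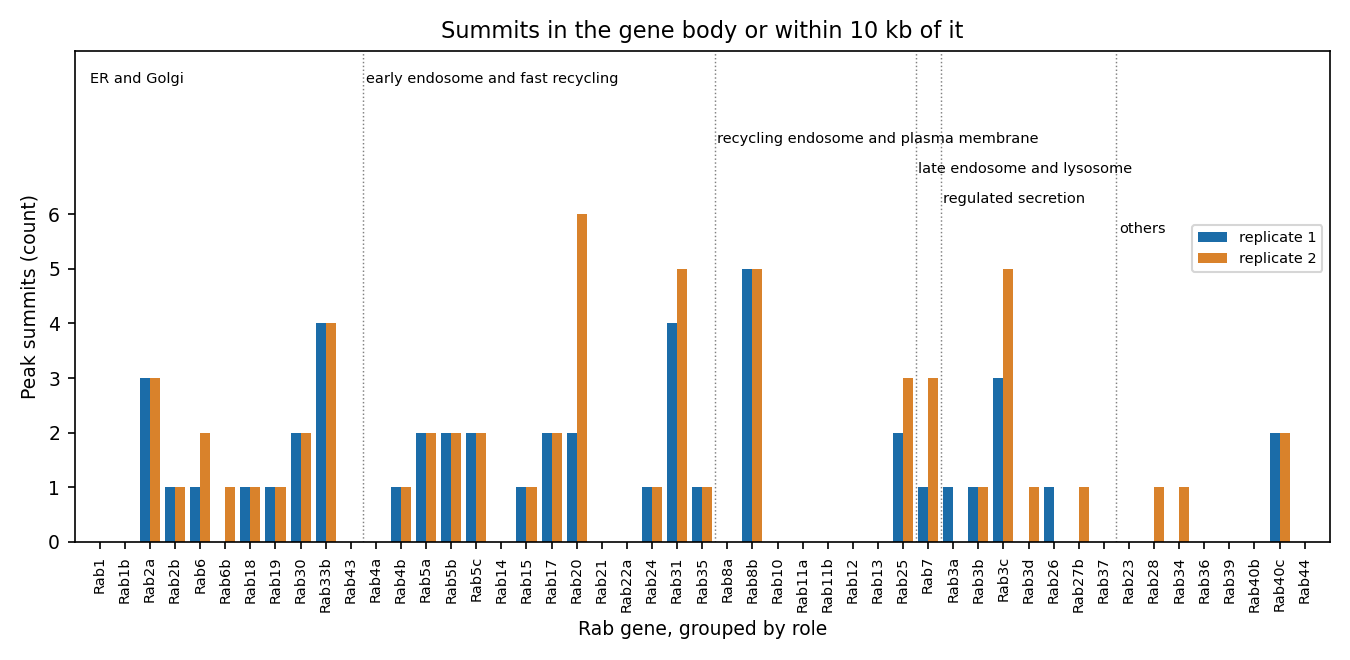
Number of peak summits of replicate 1 (blue) and replicate 2 (orange) in the gene body or within 10 kb of it, for each of the 49 Rab genes, grouped by role between dotted lines. The highest counts are 6 at Rab20 in replicate 2, and 5 at Rab8b in both replicates and at Rab3c and Rab31 in replicate 2, and 19 genes have no bar.

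**Figure D5:**
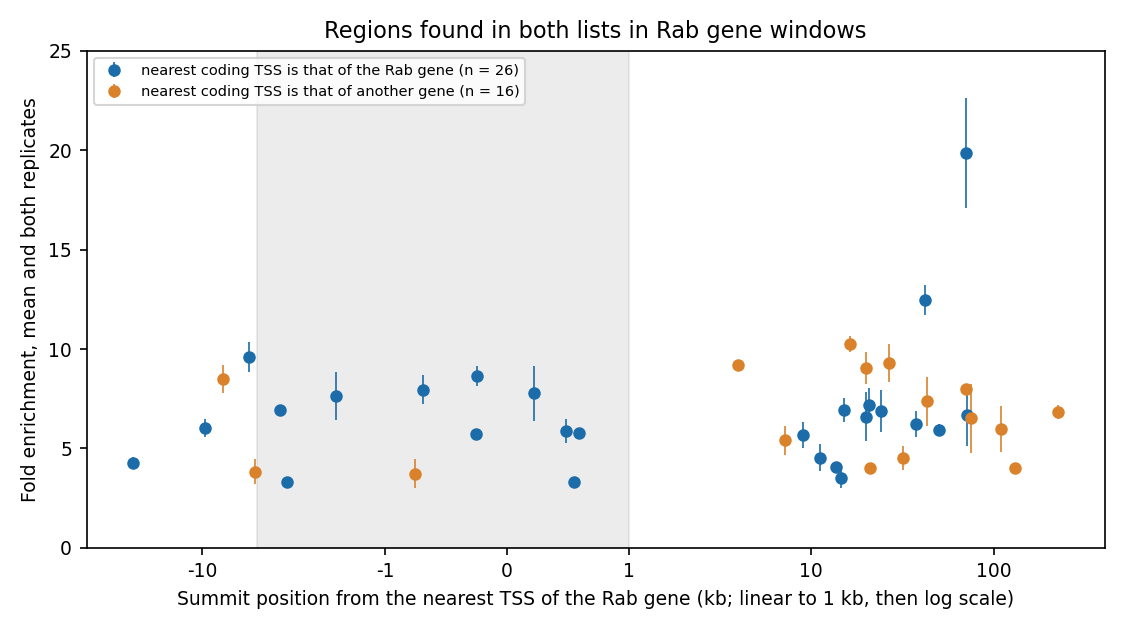
Position of the summit from the nearest start site of the Rab gene (horizontal, kb, linear to 1 kb and log scale beyond, upstream negative) and fold enrichment (vertical, points are the mean and lines end at the values of the replicates) of the 42 regions found in both lists. Shading marks the TSS window with 11 regions; 26 blue regions have the Rab start site as the nearest coding one and 16 orange regions that of another gene, and the highest point, in the Rab2a intron, stands above all others.

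At least 1 list had a summit in or within 10 kb of 30 of the 49 Rab genes (61.2%), beside 43.8% of the other coding genes, and the remaining 19 Rab genes had none. These were the ER and Golgi Rabs Rab1, Rab1b and Rab43, the endosomal Rabs Rab4a, Rab14, Rab21 and Rab22a, the recycling and plasma membrane Rabs Rab8a, Rab10, Rab11a, Rab11b, Rab12 and Rab13, the secretory Rab37, and Rab23, Rab36, Rab39, Rab40b and Rab44. By role, 10 of 14 early endosome Rabs and 7 of 11 ER and Golgi Rabs had a summit in both lists in the wider window, beside 36.1% of the other coding genes, with 33.5 and 24.4 summits per Mb in replicate 2, beside 12.7 per Mb. The recycling and plasma membrane group had 2 of 8, the regulated secretion group 2 of 7 and the group of other roles 1 of 8, with 19.9, 11.7 and 10.2 per Mb. In replicate 1 these 5 groups stood in the same order, at 26.2, 21.1, 17.4, 8.76 and 5.09 per Mb, beside 10.9 per Mb. Rab7, alone in its group, had a summit in both lists, with 15.1 per Mb in replicate 1 and 45.3 in replicate 2, so its place in the order changed between the replicates. These counts include regions nearest to a neighbouring gene. Rab4b, Rab5c, Rab24 and Rab35 of the early endosome group had no region in both lists other than one nearest to Egln2, Hspb9, Prelid1 and Ccdc64. The same held for Rab19 of the ER and Golgi group, with Slc37a3, and for Rab25 of the recycling group. The order of the groups without such regions was not tested. The groups are small, and no difference between them was tested. Both Rab1 genes and both Rab11 genes, which serve the early secretory and the recycling route, were among those with none.

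About as many Rab peaks held a TFAP2 match at the summit as peaks of other genes, within the wide intervals that few peaks allow. Near start sites, 8 of 15 Rab peaks had a match within 50 bp of their summit in each replicate (53.3%, 26.6 to 78.7), beside 63.2% and 66.9% of the other coding genes' peaks in replicates 1 and 2. In equally long windows centred 400 bp away on either side, 20.0% to 33.3% of the Rab peaks held one. The Rab share depended on the search, at 10.0% with the longer GCCNNNGGC and 80% with 100 bp to each side of the summit. The other genes' peaks were not searched in these ways. In the wider gene windows the match was held by 29 of 47 Rab peaks in replicate 1 (61.7%, 46.4 to 75.5) and 32 of 61 in replicate 2 (52.5%, 39.3 to 65.4), beside 56.8% and 60% at the other genes. The others' share lay inside the Rab interval each time.

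Sites of other melanocyte factors were few at Rab summits, as at those of other genes. The E-box CACGTG was held by 1 of 15 Rab TSS-window peaks in each replicate (6.67%), at Rab5a in replicate 1 and at Rab34 in replicate 2, beside 2.55% and 2.86% at the other genes. The M-box letters TCATGTG, a MITF site, were found at no Rab summit of either list, and at 1.08% and 1.37% of the other genes' TSS-window peaks and 1.89% and 2.22% of their gene-window peaks, so that a count of 0 does not set the few Rab peaks apart. The AP-1 letters TGACTCA and TGAGTCA, each the reverse complement of the other, were held by 2 Rab gene-window peaks in each replicate (4.26% and 3.28%), at Rab3c and Rab17 in both, beside 5.98% and 5.24%. All were searched on both strands, and matches of different motifs may share bases. No match says only that these letters were not within 50 bp of the summit.

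Rab promoters were richer in CpG than those of other genes. Over 500 bp to each side of the 5′ end of the gene, the median GC content was 60.8% against 54.9%, and the ratio of observed to expected CpG had a median of 0.740 against 0.558. The ratio was over 0.6 in 36 Rab genes (73.5%) against 46.4% of the others. Among genes over 0.6, a summit lay in the TSS window in both lists at 7 of 36 Rab genes (19.4%, 8.19 to 36.0) and at 26.7% of the others, and among genes at 0.6 or less at 1 of 13 and 9.57%. A TFAP2 match lay from 250 bp upstream to 50 bp downstream of the 5′ end in 36 Rab genes (73.5%) and in 58.6% of the others. The match was held by 24 of the 33 Rab genes with no TSS-window summit (72.7%) and 6 of the 8 with one in both lists (75%). Among the other coding genes the corresponding shares were 54.3% and 74.2%, and with 8 Rab genes in the latter class the Rab shares are too imprecise to compare with these.

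Genes that act on Rab proteins were counted in the same way. Of 87 such genes in 4 lists, 27 had a TSS-window summit in both lists (31.0%, 21.5 to 41.9), beside the 17.5% of coding genes outside the Rab group. The GTPase-activating proteins, with 14 of 36 (38.9%, 23.1 to 56.5), and the exchange factors, with 9 of 24 (37.5%, 18.8 to 59.4), had intervals above that share. The 26.7% of coding genes outside the Rab group with a CpG ratio over 0.6 lay inside both intervals. The promoters and lengths of the listed genes were not compared with those of other genes. Effectors gave 3 of 21 (14.3%, 3.05 to 36.3) and the prenylation and recycling genes 1 of 6 (16.7%, 0.421 to 64.1). The lists were chosen with earlier results of these data known, and the difference from the Rab genes was not tested.

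Several of these genes had stronger start site regions than any Rab gene. Tbc1d12, of the TBC family of GTPase-activating proteins, had 20.8 ± 2.50 (SD, n = 2) at -3249 bp, and Tbc1d30 had 9.49 ± 1.29. The Rab5 exchange factors Rin3 and Rabgef1 had 11.7 ± 0.260 at -1953 bp and 9.98 ± 0.482 at -231 bp. Rabif, which binds Rab proteins free of nucleotide, had 13.7 ± 0.574 at -475 bp. The highest effectors were Plekhm1, which binds Rab7, with 5.11 ± 0.292, and Sytl3, of the synaptotagmin-like family, with 5.02 ± 0.682. In these lists the strongest regions thus belonged to regulators of the Rab cycle, and those of the effectors lay below the best Rab region. The lists differ in size, with 36 GTPase-activating proteins and 24 exchange factors against 21 effectors. The best Rab start site region was itself number 4207 of 15732 regions, so many regions elsewhere also lay above it.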

How the data were processed

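Per the submitters' processing notes, the authors used BWA, MACS 1.4.2 and build mm9; the notes give no role or order. The lists are in narrowPeak form with summit offsets and q-values, which MACS 1.4 does not write itself, so another version or a conversion step may have made them and the exact definition of their fold enrichment is uncertain. Peaks were called on each replicate. The deposited lists give a fold enrichment (ratio), the -log10 p, the -log10 q and a score, which is 10 times that -log10 p with its decimals dropped. In the deposited lists the lowest -log10 q was 2.64, so weaker regions are not in them. Read depth was unknown. The deposited score and -log10 p were not used to compare genes, and the -log10 q only in an alternative that kept peaks with at least 5.

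Summits were assigned to the TSS and gene windows of GENCODE vM1 (Ensembl 65) coding genes on chromosomes 1 to 19, where 18151 and 20991 peaks lay; 0 peaks ran past a chromosome end in mm9. A region is a pair of replicate peaks that are each other's largest overlap, of at least 1 bp, placed by its replicate 1 summit. Sequences came from the mm9 genome. Intervals are at 95% (exact Clopper-Pearson) and reflect counting error alone. Rab genes, gene lists and roles were chosen with earlier results of these data known. Values were named for up to 12 Rab genes with the highest TSS-window region (8 had one), the 8 with the most gene-window regions (ties in alphabetical order), those with a TSS-window summit in 1 list, those with no summit, paralogs that differed, and pathway genes above every Rab gene or the 2 highest of a list. Other regions named were singled out after their values were seen. Alternatives were other q, enrichment, list length, overlap, window, TSS, site and assignment choices and each replicate alone. The scripts, in Python 3.11.15 with numpy 2.4.6, pandas 2.3.3, scipy 1.17.1 and matplotlib 3.10.9, were tested on simulated data.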

Additional observations from a re-analysis of the deposited data

How the results depend on the processing

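With either replicate alone, 12 Rab genes in place of 8 had a TSS-window summit, and 25 or 28 in place of 23 a gene-window summit; for the ratios, medians and percentages, which are means of the replicates, the values of each replicate are those given in the text and say nothing more on stability. No paired analysis was possible because there was 1 ChIP group. Of 88 values under 15 alternatives, 27 moved. Gene counts were given a wide fold tolerance, under which a change from 8 to 12 was not a move. Any other value moved when it differed from the main one by at least the SD of the replicates. For the match percentage that SD was 0, so a change from 53.3% to 53.9% was a move. The number of moves is therefore no measure of stability. For no value was the cause tested beyond what the alternative itself changes. Among the upper 50% of each list, 4 Rab genes (8.16%) and 1400 other genes (6.55%) had a TSS-window summit in both lists. A gene-window summit was held by 15 Rab genes (30.6%) and 4232 other genes (19.8%). The density ratios were then 1.74 and 1.77, the median enrichments 6.94 at Rab and 7.60 at other genes, which turned the order of the medians, and the TFAP2 match percentage 57.1%. With the gene body alone, 12 Rab genes (24.5%) and 4601 other genes (21.5%) had a summit in both lists, at a density ratio of 1.39. With 100 kb to each side these were 45 (91.8%) and 15823 (74.0%), at 1.89. Counting only summits nearest to the gene left 17 Rab genes (34.7%) and 5845 other genes (27.4%) with a gene-window summit in both lists. The same choice gave a gene-window density ratio of 1.13, a median Rab enrichment of 5.75 and a match percentage of 50.0%. Lists of the same length gave medians of 5.83 and 5.05 and a match percentage of 53.9%, the 5′ end of the gene alone a Rab median of 5.79 and 60.3%, and 1 kb to each side of a TSS a median at other genes of 4.46 and a match percentage of 50.0%. The longer consensus GCCNNNGGC lowered the match percentage to 10.0%, and 100 bp to each side of the summit raised it to 80%. The order of the TSS-window shares in both lists, 16.3% at Rab and 17.5% at other genes, turned with the upper 50% (8.16% and 6.55%), lists of the same length (16.3% and 15.0%), 1 kb to each side of a TSS (14.3% and 13.2%) and either replicate alone (24.5% against 19% and 21.4%), and the shares were nearly equal with the TSSs of protein-coding transcripts (16.3% each) or the 5′ end alone (14.3% and 14.2%).

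The unknown depth and the peak caller' threshold limit every count: a gene with no peak is one with none in these lists. With 49 genes and 15 TSS-window peaks, the intervals on Rab shares are wide.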
